A study of Mus musculus with 9 samples.

Results

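The genes described here are 41 interferon-stimulated antiviral genes, taken as the rows of a deposited gene count table whose symbol was on a list of mouse genes known to be induced by interferon. Of the 23317 rows in the table, 40 were found by symbol and 1, Ddx58 (RIG-I), by its gene identifier, since the table lists it under its newer symbol Rigi. All 41 were among the 14227 genes with enough counts to be tested. The genes were followed over 9 low-input RNA-seq libraries of mouse haematopoietic stem cells (HSCs), the self-renewing cells of the bone marrow from which blood is made. All mice were labelled wild type. There were 3 libraries of young HSCs, 3 of old HSCs, and 3 of old HSCs with ABC294640, described by the submitters as an inhibitor of sphingosine kinase 2, an enzyme that phosphorylates the lipid sphingosine. The labelled protocols give ages of 2 to 4 and of 20 to 24 months, which were assigned to the young and the old groups by their wording. Each library was made from 1500 sorted marrow cells with 12 cycles of PCR. Which markers the cells were sorted on, and how, for how long and at what dose ABC294640 was given, is not stated in the labels. They also do not tie the 3 libraries of a group to different animals, so the p-values measure the spread between these libraries, which may be technical.

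Type I interferons bind the receptor formed by IFNAR1 and IFNAR2 on the cell surface. The receptor's kinases JAK1 and TYK2 then set off the assembly of a complex named ISGF3, which includes STAT2 and IRF9 and binds the interferon-stimulated response element (ISRE) in front of its target genes. The products sense foreign nucleic acid, block translation, degrade RNA, trap or restrict virus particles and attach the ubiquitin-like protein ISG15 to other proteins. Stem cells are known to hold part of this set at a steady level without infection, and interferon is known to bring quiescent HSCs into cycle.

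The response element can be read in the sequence before the start of several of these genes. RefSeq promoter windows on build GRCm38.p6, running from 250 bases before to 50 bases after a start, were on hand for 30 of the 41 genes, in 36 windows. They were searched on both strands for the core of the element, which is GAAA, then any 2 bases, then GAAA. The core was in a window of 14 of the 30 genes (46.7%), against 1079 of all 27025 genes with a window (3.99%). By window, it was in 41.7% of the members' windows and in 3.44% of all windows. The core of the STAT-binding GAS element, TTCNNNGAA, was in 7 of the 30 genes (23.3%) and in 9.55% of all genes. Of 23 matches to the ISRE core in the members, 2 overlapped a GAS core, and 17 lay before the start, at distances of 5 to 213 bases. The stretches below show members from 4 of the families whose levels are described next, in each case the 160 bases that end just before the start, read 5′ to 3′ along the gene. Capitals mark the ISRE core, written TTTC, 2 bases, TTTC where it lies on the opposite strand.
Isg15 (chr4:156200819-156200978, minus strand): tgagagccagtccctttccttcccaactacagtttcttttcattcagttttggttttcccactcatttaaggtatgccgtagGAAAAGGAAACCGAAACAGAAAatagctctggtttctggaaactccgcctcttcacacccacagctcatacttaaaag
Ifit1 (chr19:34640729-34640888, plus strand): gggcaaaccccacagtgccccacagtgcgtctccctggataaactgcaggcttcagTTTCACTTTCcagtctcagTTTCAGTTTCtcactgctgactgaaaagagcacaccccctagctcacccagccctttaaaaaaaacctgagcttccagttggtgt
Ifit3 (chr19:34583369-34583528, plus strand): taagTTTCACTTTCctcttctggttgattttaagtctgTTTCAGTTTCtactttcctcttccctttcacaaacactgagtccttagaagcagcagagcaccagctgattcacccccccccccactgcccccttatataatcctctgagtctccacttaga
Oas3 (chr5:120777660-120777819, minus strand): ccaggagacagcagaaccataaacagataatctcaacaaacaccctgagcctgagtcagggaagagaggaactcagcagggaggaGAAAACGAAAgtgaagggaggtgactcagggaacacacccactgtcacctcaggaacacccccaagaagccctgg
Rsad2 (chr12:26456453-26456612, minus strand): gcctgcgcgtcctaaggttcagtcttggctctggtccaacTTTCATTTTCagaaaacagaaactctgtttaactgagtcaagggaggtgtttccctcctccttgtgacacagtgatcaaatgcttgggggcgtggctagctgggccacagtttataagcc
In Isg15, 3 cores overlap in 1 run of capitals. Ifit1 and Ifit3 each hold 2 cores in the stretch shown, and Oas3 and Rsad2 each hold 1. The core was in a window of 11 of the 23 members with a window that were lower in old HSCs (47.8%). The same held for 3 of the 7 members whose difference between old and young HSCs did not pass the test (42.9%).

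Most of the set was lower in old than in young HSCs. With edgeR's quasi-likelihood test and an adjusted p under 0.05, 34 of the 41 members were lower in old HSCs and 0 were higher. In the same comparison 19.8% of all genes tested were called lower and 19.6% higher. No member went up at an unadjusted p under 0.05, and with DESeq2 in place of edgeR 31 members were called lower and 0 higher. For 37 members every old library was below every young library, which was so for 25.6% of all genes. For 1 member, Ifit2, every old library was above every young one, as for 22.8% of all genes, and for Ifih1, Stat2 and Sp100 the groups overlapped. The median log2 fold change of the 41 members was -0.70, with a range from -1.87 for Ifi27l2a to 0.26 for Ifit2, beside a median of -0.03 over all genes tested.

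The drop was of similar size in each library. Each gene was set against its mean over the young libraries, and the median of the 41 log2 ratios was then taken. It was 0.034, -0.013 and -0.001 in the young libraries, -0.725, -0.671 and -0.712 in the old libraries and -0.747, -0.636 and -0.634 in the treated old libraries. Each of the old libraries had 37 or 38 of the 41 members below the lowest young library, and the treated old libraries had 35 to 38. The share of all genes was not counted for single libraries. Taking the old libraries together, 25.6% of all genes had every old library below every young one. The summed level of the 41 genes in CPM, the count scaled to a common library size, was 2630, 2490 and 2560 in young, 1590, 1530 and 1620 CPM in old and 1700, 1680 and 1680 CPM in treated old libraries. Ifitm3 made up much of this sum. Without it the sums were 1510, 1470 and 1480 CPM in young, 945, 941 and 953 CPM in old and 999, 991 and 991 CPM in treated old libraries. No library of 1 group reached the range of sums of another group in either version. Per kilobase of exon, mean levels in young HSCs ran from 0.521 CPM for Ifit3b to 1580 CPM for Ifitm3.

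**Figure D1:**
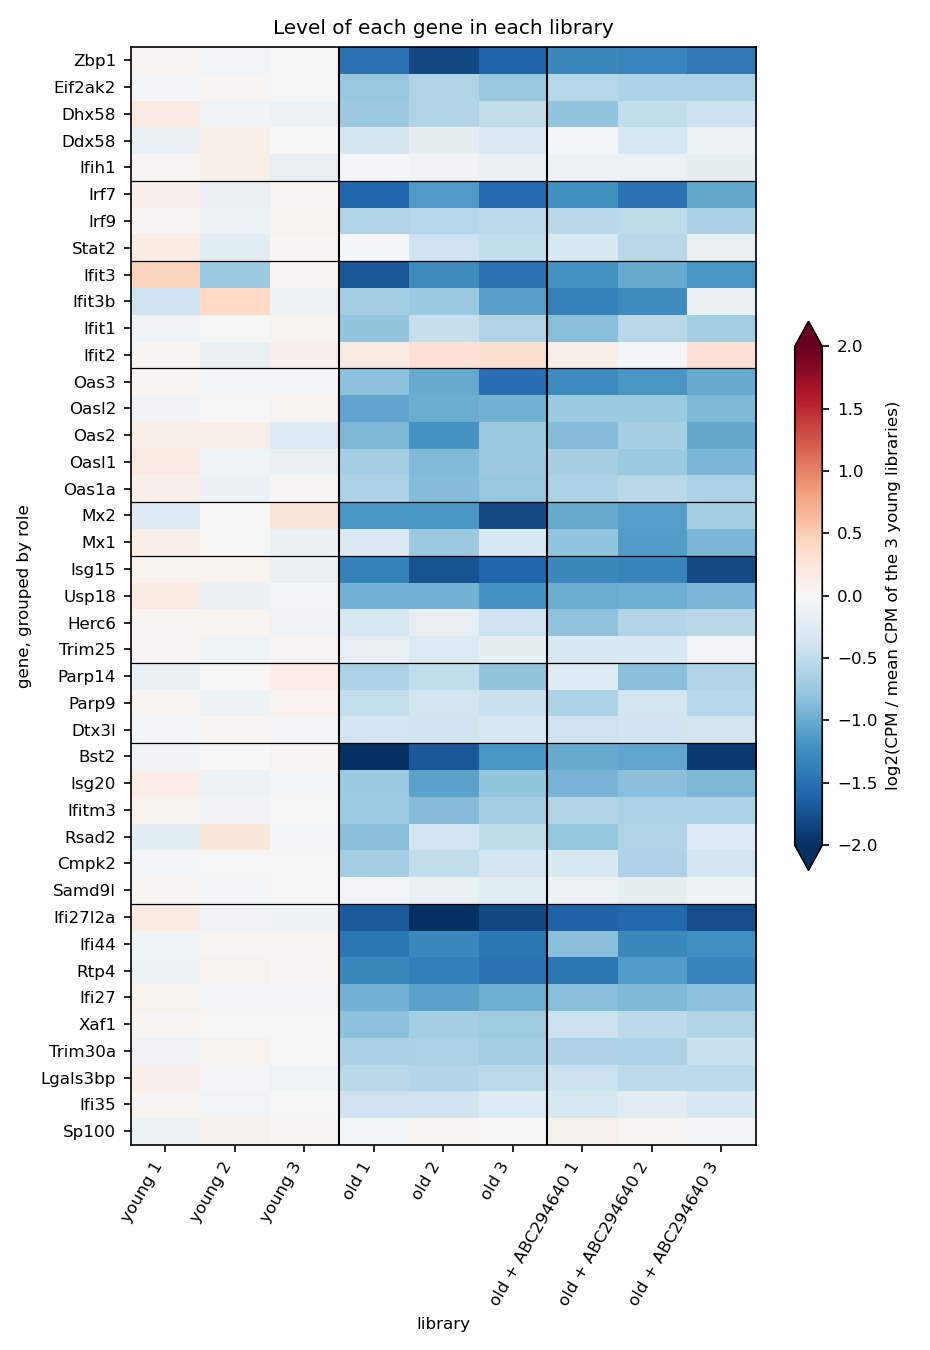
Level of each of the 41 genes (rows, grouped by role) in each of the 9 libraries (columns), as the log2 ratio of its CPM to the mean CPM of the 3 young libraries, with blue for lower and red for higher and the scale capped at 2 in either direction. The old and treated old columns are blue for most rows, while Sp100, Ifih1 and Samd9l stay near 0 and Ifit2 is red in the old libraries.

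These are bulk measurements of sorted cells, so fewer cells of a type and less RNA per cell cannot be told apart. All 11 HSC markers checked were detected, with sums of 326 to 343 CPM in young, 298 to 302 in old and 307 to 310 in treated old libraries, and 5 were lower and 1 higher in old HSCs. Among them Procr was at 2.33 to 4.1 CPM and Fgd5 at 0.308 to 1.37 CPM over the 9 libraries. Mpo, a granule enzyme of myeloid progenitors, was at 10900 to 17000 CPM. Markers of monocytes and macrophages, cells that express many interferon-stimulated genes, moved in the same direction as the set. Their summed level was 3400 to 3680 CPM in young, 2330 to 2510 in old and 2410 to 2500 in treated old libraries, and 7 of the 8 were lower in old HSCs. The erythroid list was lower for 6 of 6 genes, with sums of 800 to 841 CPM in young, 358 to 360 in old and 403 to 406 in treated old libraries. Plasmacytoid dendritic cell markers summed to 50.2 to 54.5 CPM in young, 46.8 to 49.3 in old and 45.5 to 51.8 in treated old libraries, with 1 of 4 tested called lower, Siglech at 0.464 to 2.84 CPM and Klk1 at no more than 0.124 CPM. Megakaryocyte genes summed to 451 to 492 CPM in young, 225 to 253 in old and 292 to 309 in treated old libraries, with 4 of 6 lower in old HSCs. Conventional dendritic cell genes summed to no more than 5.74 CPM. The part of these cells in the result was not tested. Lists of other cells were higher in sum in old libraries: neutrophil genes summed to 4380 to 4530 CPM in young and 7080 to 8100 in old libraries, primary granule genes to 29600 to 33500 and 45300 to 47900 CPM, B and plasma cell genes to 340 to 384 and 675 to 760 CPM, and T and NK cell genes to 1330 to 1490 and 1740 to 1890 CPM. In the last 2 lists most genes had the opposite sign to the sum: 5 of 8 tested B and plasma cell genes (2 called higher, 2 lower) and 5 of 6 tested T and NK cell genes (1 higher, 1 lower) were below their young level. Of the 7 neutrophil genes, 4 were called higher and 0 lower, and 3 had a negative log2 fold change. All 5 primary granule genes were called higher. Y-linked transcripts also differed between the age groups. Ddx3y was at 0.664 to 1.18 CPM in young, 35.9 to 44.7 in old and 32.3 to 43.1 in treated old libraries, and Eif2s3y at 1.58 to 3.13, 76 to 81.4 and 72 to 83.5 CPM. Kdm5d was at 0 to 0.147, 3.65 to 5.6 and 3.83 to 4.62 CPM. Uty differed less, at 5.25 to 6.17, 12.6 to 14.6 and 13.9 to 15.4 CPM, and was detected in every young library. Age and the sex of the mice therefore cannot be told apart in the comparisons with young HSCs.

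Among the sensors of foreign nucleic acid, 4 of 5 were lower in old HSCs, with a median log2 fold change of -0.61. Zbp1, a sensor of left-handed double-stranded nucleic acid that can start necroptosis, was at 28.1, 26.2 and 27.1 CPM in young, 9.71, 7.75 and 8.94 CPM in old and 11.1, 11 and 10.1 CPM in treated old libraries. The young and old libraries lay far apart, and the old level was 3.08-fold lower (log2 fold change -1.63, SE 0.0935, adjusted p = 1.95e-11). Eif2ak2 encodes PKR, the kinase that halts translation on double-stranded RNA. Its level was 39.4, 41 and 40.2 CPM in young, 23.8, 26.5 and 23.7 in old and 27, 25.8 and 26 in treated old libraries, and it fell by 0.70 on the log2 scale in old HSCs (SE 0.0672, adjusted p = 5.32e-08). The 3 RIG-I-like receptors, which detect viral RNA in the cytosol, differed among themselves. Dhx58 (LGP2) was at 15.9, 13.5 and 13 CPM in young and 8.47, 9.28 and 10 CPM in old libraries, a log2 fold change of -0.61 (adjusted p = 0.000311). Ddx58 was at 20.9, 25 and 23.2 CPM in young, 17.8, 20.2 and 18.9 in old and 22.5, 18.1 and 21.2 in treated old libraries. Its log2 fold change was -0.27 (SE 0.0918, adjusted p = 0.0234), a call that was lost on leaving out old library 1 or 3 or young library 2 or 3, where the adjusted p was 0.105, 0.0839, 0.132 and 0.0685, and that DESeq2 did not make. Ifih1 (MDA5) was at 30.7, 32.5 and 26.8 CPM in young, 29.2, 28.5 and 27.3 in old and 27.8, 27.8 and 26.1 in treated old libraries. The young and old values overlapped, and the log2 fold change of -0.08 (95% interval -0.24 to 0.07, adjusted p = 0.399) did not pass the test.

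Of the 3 transcription factors in the set, 2 were lower in old HSCs. Irf7, the factor that amplifies interferon production, stood at 25.3, 21.4 and 24.2 CPM in young, 7.88, 10.8 and 8.14 in old and 10.1, 8.38 and 11.6 in treated old libraries. No old or treated library reached the range of the young ones. The log2 fold change between old and young was -1.39 (SE 0.121, adjusted p = 1.35e-08). Irf9, the DNA-binding part of ISGF3, was at 53.1, 47.5 and 54.5 CPM in young, 34, 35 and 35.7 in old and 35.3, 36.3 and 33 in treated old libraries, a difference of -0.57 on the log2 scale between old and young (SE 0.0663, adjusted p = 9.79e-07). Stat2, its partner, was at 8.67, 6.77 and 8.01 CPM in young, 7.65, 5.89 and 5.57 in old and 6.32, 5.3 and 7.04 in treated old libraries. The groups overlapped in old library 1, and the log2 fold change of -0.30 (SE 0.146, 95% interval -0.61 to 0.00, adjusted p = 0.108) did not pass the test. Without old library 1 it was -0.44 with an adjusted p of 0.0356.

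The IFIT genes, whose products bind viral RNA ends and block their translation, lie in a cluster on chromosome 19 (GRCm38). It runs from Ifit2 at position 34550694 to Ifit1, which ends at position 34650009, with the related Ifit1bl1 and Ifit1bl2 in between. The IFIT members of the set did not move as 1 block. Ifit1 was at 22.2, 23.2 and 24.4 CPM in young, 13.5, 16.9 and 15.4 in old and 12.9, 15.9 and 14.4 in treated old libraries, with no overlap between young and old and a log2 fold change of -0.60 (SE 0.094, adjusted p = 3.68e-05). Ifit3 was at 2.36, 1.03 and 1.8 CPM in young, 0.529, 0.718 and 0.612 in old and 0.754, 0.862 and 0.771 in treated old libraries, with a log2 fold change of -1.47 (SE 0.348, adjusted p = 0.00222). Its near copy Ifit3b was at 0.788, 1.37 and 0.967 CPM in young, 0.647, 0.622 and 0.49 in old and 0.406, 0.431 and 0.925 in treated old libraries. Every old library was below every young one, but the log2 fold change of -0.81 (SE 0.387, adjusted p = 0.106) did not pass the test. Both rest on few reads, 7 to 57 counts a library, and share most of their 31-base words with another gene, chiefly each other (61.8% of those of Ifit3 and 55.3% of those of Ifit3b), so the split between them is uncertain. Ifit2, which begins the cluster and shares no such words with another gene, was at 6.64, 5.89 and 7 CPM in young, 7.35, 7.94 and 8.14 in old and 7.08, 6.34 and 8.01 in treated old libraries. Every old value was above every young value, the only such case in the set. The log2 fold change was 0.26 (SE 0.126, 95% interval -0.00 to 0.52), and with an adjusted p of 0.105 it did not pass the test.

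All 5 members of the OAS family were lower in old HSCs, with a median log2 fold change of -0.94. These genes encode sensors of double-stranded RNA, of which the enzymatically active ones make the messenger that switches on the RNA-degrading enzyme RNase L. Oas1a was at 89.7, 76.9 and 85.5 CPM in young, 53.9, 46 and 49.8 in old and 54.1, 57.1 and 54.1 in treated old libraries, and the old level differed by -0.76 on the log2 scale (SE 0.0657, adjusted p = 1.29e-08). It shares 68.8% of its 31-base words with other genes, chiefly Oas1g and Oas1b, so its level is uncertain. Oasl2 was at 27.9, 29.5 and 30.3 CPM in young, 14.1, 14.6 and 15.1 in old and 17.4, 17.4 and 15.7 in treated old libraries. The 3 groups did not overlap, and the log2 fold change between old and young was -1.0 (SE 0.0784, adjusted p = 2.66e-09). Oas3 went from 9.08, 8.68 and 8.7 CPM in young to 5, 4.4 and 3.06 CPM in old libraries, and Oas2 from 9.04, 9.07 and 7 to 4.47, 3.68 and 5.02 CPM. For Oasl1 the young libraries were at 12.4, 10.3 and 9.9 CPM and the old libraries at 6.82, 5.93 and 6.55 CPM.

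The MX proteins are dynamin-like GTPases that restrict viruses. In the gene annotation used (GENCODE M21) Mx2 is listed as a polymorphic pseudogene. Mx2 was at 3.53, 4.17 and 4.93 CPM in young, 1.88, 1.87 and 1.22 in old and 2.09, 1.97 and 2.67 in treated old libraries, with a log2 fold change of -1.32 between old and young (SE 0.219, adjusted p = 7.3e-05). Mx1 was at 7.51, 6.96 and 6.35 CPM in young, 5.65, 4.16 and 5.63 in old and 4, 3.2 and 3.7 in treated old libraries. Its 3 groups followed each other downwards without overlap. The difference between old and young was -0.44 on the log2 scale (SE 0.147, adjusted p = 0.0216), and it missed the threshold without old library 2 (adjusted p = 0.155), without young library 1 (0.0753), after thinning to equal depth (0.0685) and with DESeq2 (0.102).

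ISG15 is attached to other proteins by enzymes that include HERC6 in the mouse, and is taken off by USP18, which also limits signalling at the type I receptor. Isg15 was at 5.18, 5.2 and 4.46 CPM in young, 1.94, 1.48 and 1.65 in old and 2.03, 1.97 and 1.44 in treated old libraries, 2.92-fold lower in old HSCs (log2 fold change -1.55, SE 0.197, adjusted p = 2.85e-06). Usp18 fell with it, from 27, 22.1 and 23.7 CPM in young to 12.6, 12.5 and 10.7 CPM in old libraries, a log2 fold change of -1.02 (SE 0.0947, adjusted p = 3.4e-08), and stood at 12.1, 12.3 and 12.8 CPM in treated old libraries. Herc6 was at 8, 7.99 and 7.41 CPM in young, 6.18, 6.99 and 5.88 in old and 4.47, 5.17 and 5.29 in treated old libraries. Although the groups did not overlap, its log2 fold change of -0.29 between old and young (SE 0.124, adjusted p = 0.0684) did not pass the test. Trim25, a ubiquitin and ISG15 ligase that acts on RIG-I, was at 24.9, 22.9 and 25.2 CPM in young, 21.6, 20.1 and 21.4 in old and 19.7, 19.7 and 23.5 in treated old libraries. Its difference of -0.21 (SE 0.0825, adjusted p = 0.0472) lay at the threshold and passed it in few other settings. The call was lost without any 1 of old libraries 1, 2 and 3, treated old libraries 1 and 2, and young libraries 1 and 3, where the adjusted p was between 0.0718 and 0.186.

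PARP9 and DTX3L form a complex that ADP-ribosylates and ubiquitinates proteins, and PARP14 is a related ADP-ribosyltransferase. All 3 genes were lower in old HSCs, by less than most of the set. Dtx3l was at 70.9, 73.8 and 70.4 CPM in young, 55.1, 54.4 and 57 in old and 53.9, 54.6 and 55.5 in treated old libraries, with a log2 fold change of -0.37 between old and young (SE 0.0514, adjusted p = 9.2e-06). Parp9 was at 21.5, 19.5 and 22 CPM in young, 15.1, 16.2 and 15.4 in old and 13.6, 16.2 and 14.1 in treated old libraries, with a log2 fold change of -0.43 (SE 0.0875, adjusted p = 0.000579). These neighbours overlap on opposite strands, over 9.4% of the exon bases of Parp9 and 8% of those of Dtx3l, and reads from the overlap cannot be assigned without strand. Parp14 was at 13.1, 14.3 and 15.6 CPM in young and 9.18, 10.2 and 8.32 CPM in old libraries.

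Among the effectors at membranes and on nucleotides or RNA, 5 of 6 were lower in old HSCs. Ifitm3, a membrane protein that stops virus fusion in endosomes, had the highest level per kilobase of the set and was at 1120, 1020 and 1080 CPM in young, 650, 588 and 666 in old and 702, 691 and 690 in treated old libraries. Young and old libraries were well apart, with a log2 fold change of -0.76 (SE 0.0483, adjusted p = 1.02e-10). Of its 31-base words 20.5% are shared, chiefly with Ifitm1. Isg20, an exonuclease that degrades RNA, was at 43.3, 36.8 and 39.2 CPM in young, 23.7, 18.9 and 23 in old and 20.8, 22.3 and 21.4 in treated old libraries, a log2 fold change of -0.87 between old and young (SE 0.085, adjusted p = 7.02e-08). Bst2 (tetherin), which holds budding virus at the cell surface, was low throughout: 4.6, 4.81 and 5.02 CPM in young, 1, 1.48 and 2.14 in old and 2.38, 2.34 and 1.28 in treated old libraries. Its old level was 3.12-fold lower (adjusted p = 1.95e-05). Rsad2 (viperin) and Cmpk2 are neighbours on chromosome 12 that act on nucleotides, the first by making a chain-terminating analogue of CTP. Rsad2 was at 11.9, 16 and 13.3 CPM in young and 7.59, 10.5 and 9.61 CPM in old libraries, and Cmpk2 at 20, 20.5 and 20.4 and at 12.7, 14.4 and 15.8 CPM. Their log2 fold changes were -0.56 and -0.51. Samd9l, a restriction factor that is also mutated in inherited marrow failure, was at 21, 20.3 and 20.6 CPM in young, 19.8, 18.6 and 17.8 in old and 18.9, 18.1 and 19.1 in treated old libraries. The old values lay just under the young ones, and the log2 fold change of -0.14 (SE 0.0766, 95% interval -0.30 to 0.02, adjusted p = 0.163) did not pass the test.

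In the last group, of IFI family genes and others, 8 of 9 were lower in old HSCs, with a median log2 fold change of -0.73. Ifi27 and Ifi27l2a encode small membrane proteins and are neighbours on chromosome 12. Ifi27 was at 245, 229 and 229 CPM in young, 121, 112 and 119 in old and 130, 126 and 133 in treated old libraries, which gave a log2 fold change of -1.0 between old and young (SE 0.0489, adjusted p = 1.54e-12). Ifi27l2a showed the widest gap of the 41 genes in this fit, 42.5, 36.1 and 35.2 CPM in young against 11.8, 8.66 and 10.9 in old and 12.3, 12.8 and 11.1 in treated old libraries. It was 3.63-fold lower in old than in young HSCs (log2 fold change -1.87, SE 0.105, adjusted p = 1.37e-11). Rtp4, a chaperone of receptor transport with antiviral activity, was at 66.9, 75.5 and 73.8 CPM in young, 29.4, 28 and 26 in old and 26.6, 33.2 and 29 in treated old libraries, a log2 fold change of -1.37 between old and young (SE 0.076, adjusted p = 1.14e-11). Ifi44 stood at 20.5, 22.3 and 22.6 CPM in young and at 8, 8.95 and 8.02 CPM in old libraries. Xaf1, a proapoptotic protein, went from 84.9, 83.5 and 83 CPM in young to 47.5, 52.6 and 51.2 CPM in old libraries. Trim30a, Lgals3bp and Ifi35 had log2 fold changes of -0.65, -0.56 and -0.37. Sp100, a component of nuclear bodies, did not differ detectably between the groups. Its values were 108, 123 and 118 CPM in young, 112, 119 and 116 in old and 123, 118 and 114 in treated old libraries. The log2 fold change of -0.01 (SE 0.0542, 95% interval -0.12 to 0.11, adjusted p = 0.927) changed sign with the scaling.

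**Figure D2:**
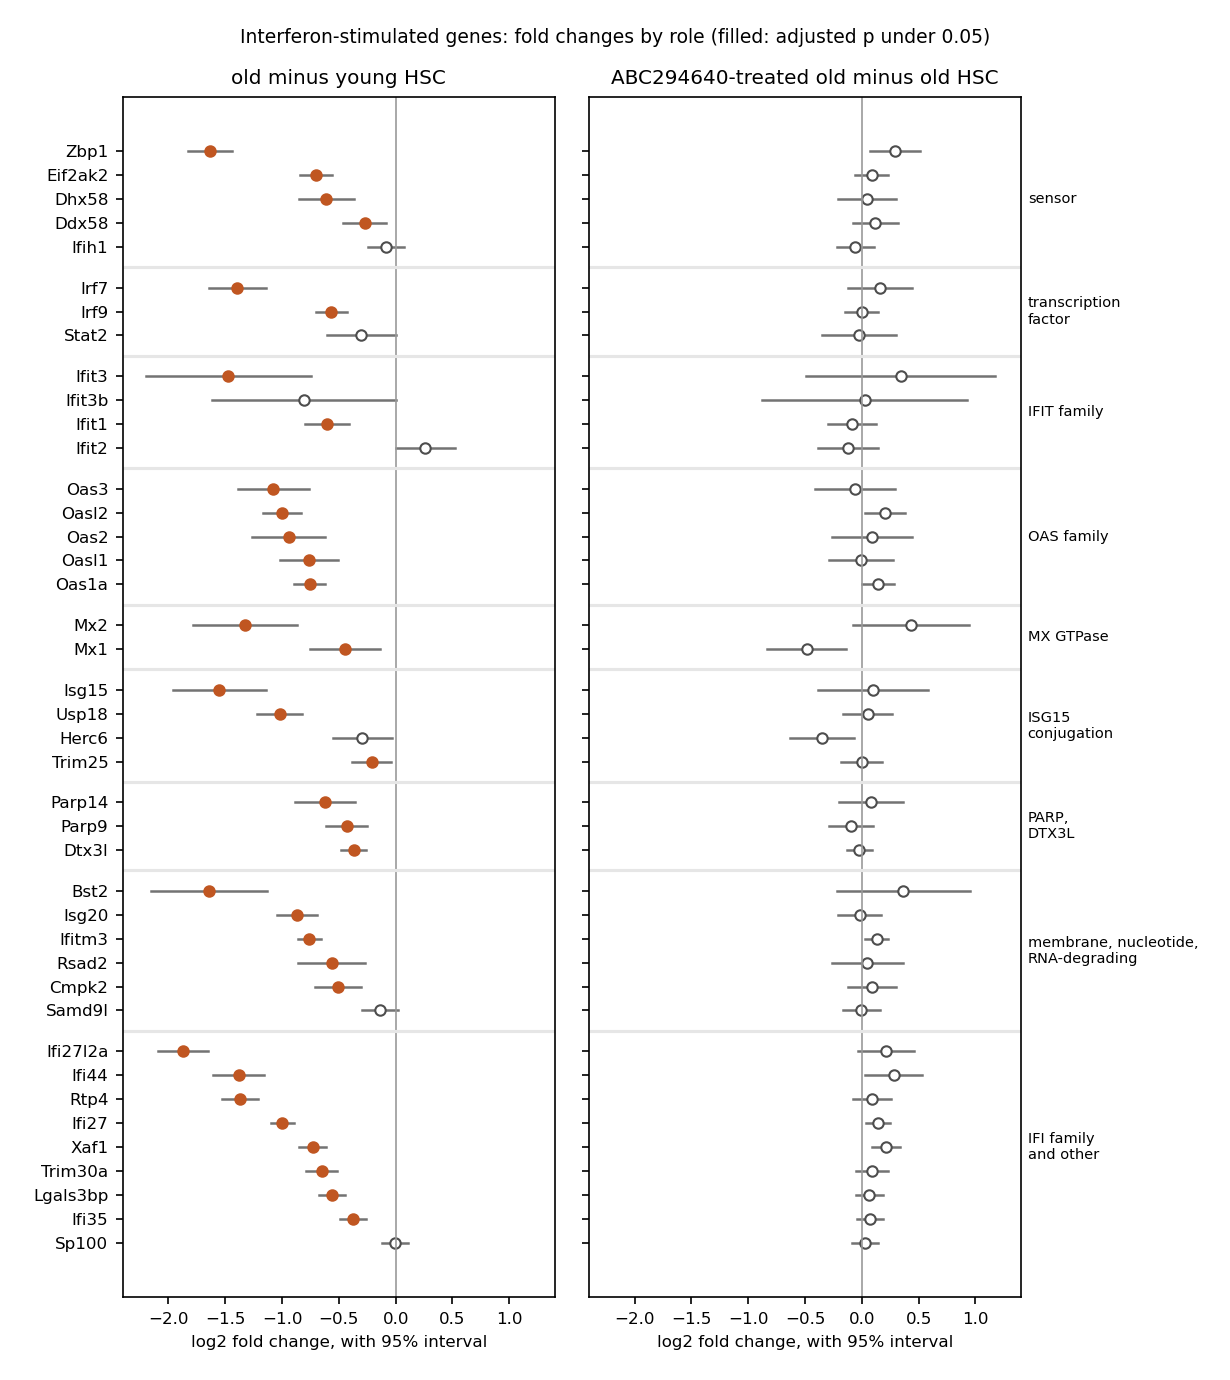
Log2 fold changes (points) with 95% intervals (lines) of the 41 genes, grouped by role, for old minus young HSCs (left) and for ABC294640-treated old minus untreated old HSCs (right). Filled points passed an adjusted p under 0.05: 34 on the left, all below 0, and 0 on the right.

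The difference between treated and untreated old HSCs was small beside that between old and young HSCs. With edgeR, 0 of the 41 members were called higher and 0 lower in treated old HSCs, and DESeq2 also called 0. Over all genes, 0.766% were called higher and 0.429% lower. At an unadjusted p under 0.05, 7 members (17.1%) were higher and 2 (4.88%) lower, beside 5.17% and 3.66% of all genes. Every treated library was above every old library for 10 members (24.4%), against 8.34% of all genes, and below for 2 members (4.88%), against 7.13% of all genes. The median log2 fold change of the members was 0.07, with a range from -0.49 for Mx1 to 0.43 for Mx2, beside 0.00 over all genes. A positive sign was found for 27 of the 41 members and for 50.4% of all genes. This comparison uses the same old libraries as the comparison with young HSCs, so the 2 are not independent of each other.

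The smallest adjusted p of the set was that of Xaf1. Its treated libraries were at 62.3, 58.6 and 55.1 CPM, above the old ones at 47.5, 52.6 and 51.2 CPM, and the log2 fold change was 0.22 (SE 0.0592, 95% interval 0.09 to 0.34, adjusted p = 0.096). The other genes with every treated library above every old one were Zbp1, Ifit3, Oas1a, Oasl2, Mx2, Ifitm3, Ifi27, Lgals3bp and Trim30a. Zbp1 had a log2 fold change of 0.29 (95% interval 0.07 to 0.51, adjusted p = 0.304), Ifi27 of 0.14 (0.04 to 0.25, 0.272) and Ifitm3 of 0.13 (0.03 to 0.23, 0.326). For Oasl2 it was 0.20 (0.03 to 0.38, 0.43). Intervals also bound the change in genes with large differences between old and young HSCs. That of Ifi27l2a ran from -0.03 to 0.46 around 0.21, and that of Rtp4 from -0.08 to 0.26 around 0.09. Between old and young their log2 fold changes had been -1.87 and -1.37. Mx1 and Herc6 were the genes with every treated library below every old one. Their log2 fold changes were -0.49 (95% interval -0.83 to -0.14, adjusted p = 0.256) and -0.35 (-0.64 to -0.07, 0.356). Mx1 and Mx2, 72.4 kb apart, thus had opposite signs, and the difference between the genes was not tested.

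Against young HSCs, treated old HSCs had 34 of 41 members lower and 0 higher with edgeR, beside 18.5% of all genes called lower and 19.1% called higher. The median log2 fold change was -0.63. Herc6 passed here and Ddx58 did not, and the other members that did not pass were Ifih1, Stat2, Ifit2, Ifit3b, Samd9l and Sp100.

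**Figure D3:**
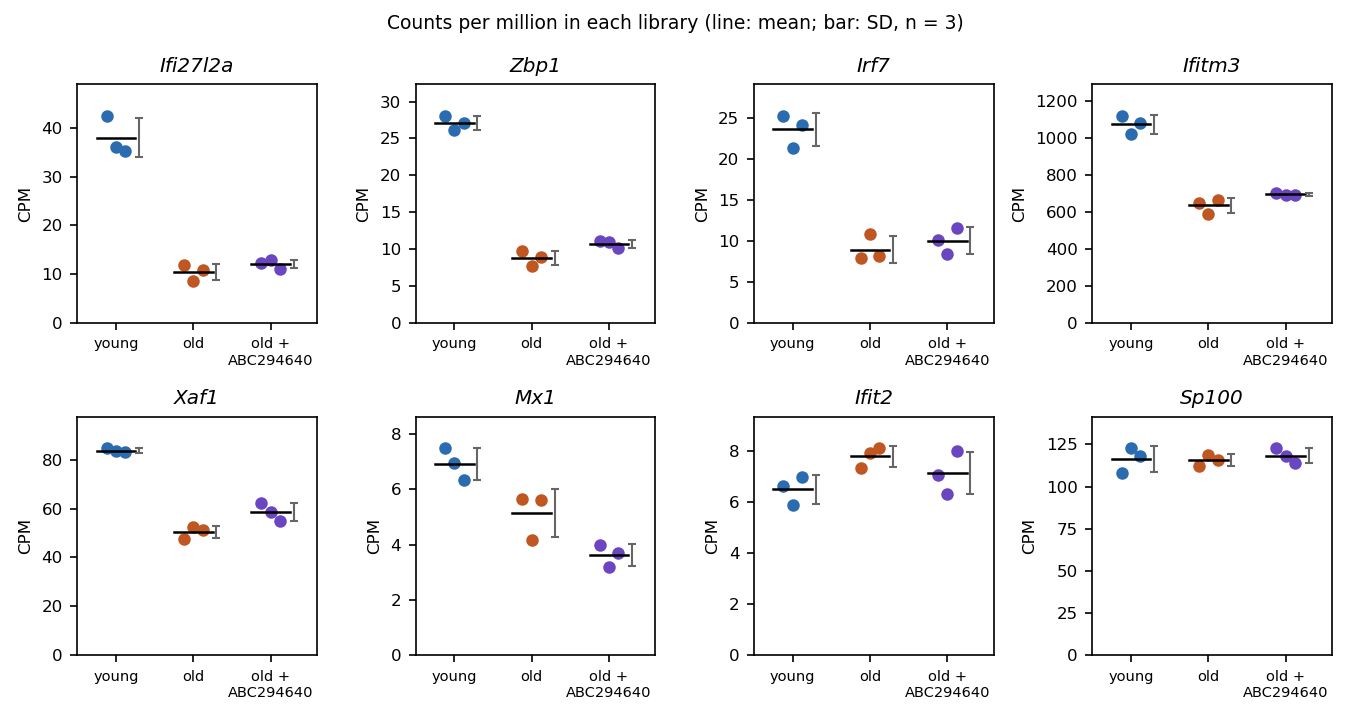
CPM of 8 of the genes in each library, with each point 1 library, the horizontal line the mean of the group and the bar its SD (n = 3), on axes that start at 0. Ifi27l2a, Zbp1, Irf7, Ifitm3 and Xaf1 are lower in both old groups, Mx1 is lowest in the treated group, Ifit2 is higher in old than in young libraries, and Sp100 overlaps in all groups.

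Other genes of the pathway were read from lists of its parts. Their counts for old against young HSCs stand beside 19.8% of all genes called lower and 19.6% called higher. Whether a list departs from these shares was not tested. Among 9 interferon ligands only Ifnb1, which encodes interferon beta, had enough counts to be tested. Ifnb1 was at 0.207, 0.589 and 0.23 CPM in young, 2.18, 1.91 and 1.41 in old and 1.04, 0.801 and 0.925 in treated old libraries, which is 5 to 40 counts a library. The old libraries were above the others and the treated ones lay between. Between old and young the log2 fold change was 2.44 (SE 0.383, adjusted p = 4.08e-05), and between treated and untreated old HSCs it was -0.99 (SE 0.337, adjusted p = 0.26), which did not pass the test. The other 8 ligands were below 1 CPM in every library. Ifna4 was at 0, 0.049 and 0 CPM in young, 0.588, 0.335 and 0.612 in old and 0.116, 0.431 and 0.36 in treated old libraries, which is 0 to 10 counts a library. Every old library was also above every young one for Ifna2, and below every young one for Ifng and Ifnl2. These ligands had at most 15, 6 and 4 counts in a library, and their differences were not tested.

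The type I receptor and its kinases did not pass the test. Ifnar1 was at 22.6, 23.2 and 24.4 CPM in young and 22.4, 22.6 and 19.8 in old libraries (log2 fold change -0.11, adjusted p = 0.264), and Ifnar2 had a log2 fold change of -0.04 (adjusted p = 0.574). Of the 6 receptor genes tested, 1 was higher, the interferon gamma receptor gene Ifngr1, at 279, 265 and 273 CPM in young and 350, 347 and 343 CPM in old libraries (log2 fold change 0.35, adjusted p = 1.12e-06), and 0 were lower. Ifnlr1, for interferon lambda, had a log2 fold change of -0.94 (adjusted p = 0.052) at under 2 CPM. Among the 3 JAK kinases 0 passed, with log2 fold changes of 0.07 for Jak1, -0.15 for Tyk2 and -0.17 for Jak2. Jak2 passed without young library 1 (adjusted p = 0.0387) and with library totals alone (0.0246), and Ifnlr1 also passed with library totals alone (0.0355). At an unadjusted p under 0.05, 0 of the 3 kinases passed with edgeR, and DESeq2 called 0.

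Among the other signalling transcription factors, Irf1, Irf5 and Irf8 were lower in old HSCs and Stat3 was higher. Irf8, a factor of monocyte and dendritic cell development, was at 124, 116 and 121 CPM in young, 45.4, 45.1 and 51.7 in old and 48.3, 46.3 and 48.2 in treated old libraries (log2 fold change between old and young -1.35, SE 0.0572, adjusted p = 1.87e-13). Irf1, itself induced by interferon, was at 122, 124 and 117 CPM in young, 100, 93.4 and 94.6 in old and 99.5, 101 and 99.5 in treated old libraries (log2 fold change between old and young -0.33, SE 0.0478, adjusted p = 1.33e-05). The log2 fold change was -0.90 for Irf5 and 0.20 for Stat3, whose call was lost with library totals alone (0.12, adjusted p = 0.0977). Irf3, which acts upstream of interferon production, was at -0.13 (adjusted p = 0.0954) and did not pass, although it did with library totals alone (-0.22, adjusted p = 0.00926) and with the stricter filter on low counts (-0.18, adjusted p = 0.0264).

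Genes upstream of interferon production did not share 1 direction. Of 11 sensing receptors and adaptors tested, 4 were higher in old HSCs (Myd88, Ticam1, Tbk1 and Traf6) and 2 lower (Mavs and Mb21d1, the gene of cGAS). Myd88, the adaptor of most Toll-like receptors, was at 74.7, 63.1 and 69.6 CPM in young, 114, 116 and 109 in old and 105, 103 and 103 in treated old libraries, higher by 0.71 on the log2 scale in old HSCs (SE 0.0566, adjusted p = 3.67e-09). Mb21d1, which makes the messenger that activates STING, fell by 0.40 on the log2 scale (SE 0.0705, adjusted p = 0.000139). For Ticam1 (log2 fold change 0.53, adjusted p = 0.048) the call was lost without any 1 of old libraries 1, 2 and 3, treated old library 3 and young libraries 2 and 3, with an adjusted p of 0.0533 to 0.168, and also with the replicate block (0.0543), DESeq2 (0.0838) and library totals alone (0.0892). Of 5 negative regulators of signalling 2 were higher, the phosphatase genes Ptpn2 (0.24, adjusted p = 0.000792) and Ptpn6 (0.13, adjusted p = 0.0405), and 0 lower. The Ptpn6 call was lost without old library 1 or 2 or young library 3 (adjusted p 0.146, 0.0566 and 0.105), and with library totals alone (0.455) or the stricter filter (0.148). Of 7 enzymes that act on cellular nucleic acid, 2 were lower, the RNA-editing enzyme gene Adar (-0.59, adjusted p = 2.18e-05) and the DNA exonuclease gene Trex1 (-0.31, adjusted p = 0.00116). Trex1 overlaps Atrip on the same strand over 100% of its exon bases and shares 97.58% of its sequence words, chiefly with Atrip. The level of Trex1 is therefore uncertain.

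A list of 52 further interferon-stimulated genes resembled the set in direction. The list was chosen with earlier results of these data known, so the likeness is no independent support. Some of its genes also share sequence words with members, such as Oas1g (55.05%, chiefly with Oas1a and Oas1b). Of the 49 tested, 28 were lower in old HSCs and 4 higher, beside 19.8% and 19.6% of all genes. Their median log2 fold change was -0.40. Mnda, a nuclear protein gene of the HIN-200 family matched to the row Ifi211 by a RefSeq synonym, was at 19.2, 18.4 and 18.8 CPM in young, 5.18, 5.17 and 5.2 in old and 6.27, 5.61 and 6.01 in treated old libraries (log2 fold change between old and young -1.86, SE 0.102, adjusted p = 9.79e-12). It shares 78.91% of its sequence words with other genes, chiefly Mndal and Ifi204, so its level is uncertain. The 4 that were higher were Cxcl10, Sp140, Nt5c3 and Pnpt1, the last of which lost its call without old library 2 (adjusted p = 0.0733) or young library 1 (0.101), and with library totals alone (0.146) or the stricter filter (0.0695). Sp140 shares 67.75% of its sequence words with other genes, so its level is also uncertain. Cxcl10, a chemokine gene induced by interferon and by NF-kB, was at 152, 153 and 152 CPM in young, 237, 229 and 239 in old and 195, 193 and 202 in treated old libraries. Its 3 groups did not overlap, with the treated one in between. The log2 fold change was 0.62 between old and young (SE 0.0431, adjusted p = 3.56e-10) and -0.26 between treated and untreated old HSCs (SE 0.043, adjusted p = 0.00302). It was the 1 gene of these pathway lists that passed in the latter comparison.

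**Figure D4:**
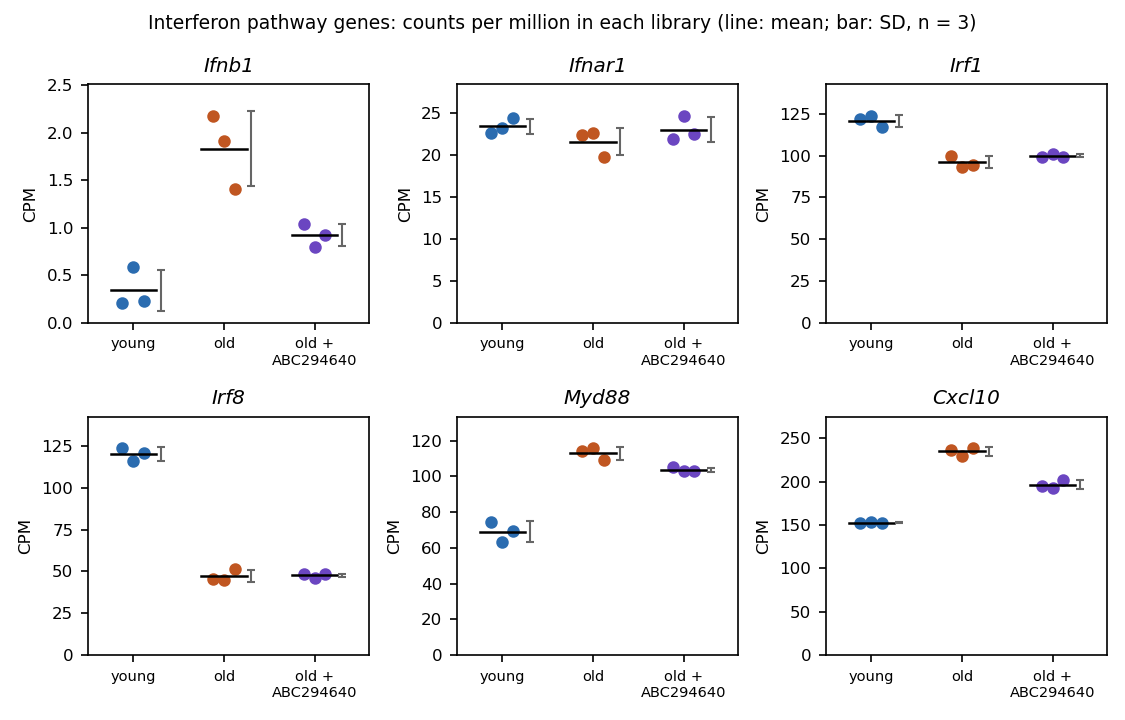
CPM of 6 genes of the interferon pathway in each library, with each point 1 library, the horizontal line the mean of the group and the bar its SD (n = 3), on axes that start at 0. Ifnb1, Myd88 and Cxcl10 are higher in old than in young libraries, Irf1 and Irf8 are lower, and Ifnar1 overlaps between treated and young libraries.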

How the data were processed

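Poly(A) RNA of sorted mouse HSCs was sequenced in 9 libraries of 3 groups, as given above. The deposited table was taken to hold expected counts per gene, since many values are not whole and the step that made them is not named. Per the submitters' processing notes the authors used mm10, HTSeq 0.10.0, STAR 2.6.1d, edgeR 3.24.3 and Trim Galore 0.6.2 in roles that are not named. Only 56.0% of values above 0 were whole (tolerance 1e-09), and all were rounded. Library totals were 16663559 to 23254225 counts, which limits precision mainly for genes of a few CPM. Counting by strand is not stated, so overlapping genes cannot be told apart.

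Counts were fitted in edgeR 4.0.16 (R 4.3.3) with TMM scaling, its default filter on low counts by group (14227 genes kept), 1 mean per group, all 9 libraries and the quasi-likelihood test. In each comparison p-values were adjusted by Benjamini-Hochberg over all genes tested. Log2 fold changes come from that fit, and levels are TMM-scaled CPM. Standard errors and 95% intervals were derived from the fold changes and the F statistics of its test. The procedure was tested on simulated data with far fewer changed genes than were called between old and young here. That run is therefore no check on those calls. Members were described by role. Given in full were, in each role group, the 2 genes of smallest p for old against young and every gene that did not pass. Named pathway genes were Ifnar1, Ifnar2, Jak1, Tyk2, Irf1, Irf3 and the 2 of smallest p in each list, apart from 1 gene that is not reported here. Other named genes were chosen after their values were seen. The members, lists and marker genes were chosen with earlier results of these data known. Gene positions are from GENCODE M21, promoters from RefSeq GRCm38.p6, and shared 31-base words were counted over GENCODE transcripts. Alternatives were other scalings, filters, tests and depths, a replicate block, and leaving out each library. Replicates of every group differed by more than sampling noise.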

Additional observations from a re-analysis of the deposited data

How the results depend on the processing

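The number of members lower in old than in young HSCs (34) was 30 with a test against a fold of 1.2, 31 with DESeq2, 31 of 36 with a filter at 5 CPM in 3 libraries, 31 of the 37 members with under 20% shared words, 32 after thinning all libraries to equal depth, 33 with RLE size factors, without a filter or with the 2 groups alone, and 37 with library totals alone. It was 32 to 34 on leaving out 1 library. With the replicate block it was 34, and the replicate numbers were not taken to pair libraries, since deviations of same-numbered libraries correlated between -0.081 and 0.132. No member was higher in these settings. Members lower in treated old than in young HSCs numbered 30 to 38, and 32 to 35 on leaving out 1 library. Between treated and untreated old HSCs 0 members passed in any of these settings. Scaling by library totals alone moved the median over all genes by -0.10 for treated old against young HSCs, and raised the share of lower genes among those called between old and young from 50.3% to 67.8%. Scaling shifts all genes by nearly the same amount. Relative to the median of all genes, the members' median was therefore bound to stay at -0.67 for old against young. That value is no check on the scaling.

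For 8 members the call or sign for old against young HSCs changed in some setting. Besides the changes given above, Herc6 passed with the stricter filter (adjusted p = 0.0378), Parp9 missed the threshold in the test against a fold of 1.2 (adjusted p = 0.0551), and Stat2, Herc6 and Samd9l passed with library totals alone (0.0388, 0.0221 and 0.0268). In the test against a fold of 1.2, smaller changes such as those of Ddx58, Mx1, Trim25, Irf1, Mavs and Mb21d1, and that of Cxcl10 with treatment, also missed the threshold. The log2 fold change of Sp100 turned positive with the 2 groups alone (0.0004), DESeq2 (0.0239), RLE size factors (0.0086), no filter (0.0372) and thinning (0.0039), and ran from -0.054 to 0.0463 on leaving out 1 library. That of Ifnar2 was 0.0052 without a filter and ran from -0.0739 to 0.009 on leaving out 1 library, and that of Jak1 was -0.0123 with library totals alone. Rtp4, treated minus untreated, ran from -0.0014 (without treated library 2) to 0.1565 on leaving out 1 library. The cause was not tested.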
